A study of Homo sapiens with 16 samples.

Results

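The 9 genes described here encode carriers that move neutral and cationic amino acids across the plasma membrane: SLC7A5, SLC7A6, SLC43A1, SLC7A1, SLC1A4, SLC1A5, SLC38A1, SLC38A2 and SLC6A9. They were chosen by symbol, with earlier results of these data known, as were the gene lists set beside them. All 9 were found among the 17552 genes with values in the expression table. The table gives FPKM, fragment counts scaled to transcript length and library size. A gene was tested where its 16 libraries averaged 1 FPKM or more, which 7 of the 9 did; SLC38A1 (mean of 0.624 FPKM) and SLC6A9 (mean of 0.773 FPKM) did not and are given as levels. The cells were HT-1080, an established line from a human fibrosarcoma, grown in DMEM with serum. The 16 RNA-seq libraries formed 8 groups of 2: control cells (siNS), cells depleted of DCAF8 (siDCAF8), cells overexpressing WDR76 (oeWDR76) and cells depleted of both DCAF8 and LSH (siDCAF8+siLSH), each left without drug or given erastin at 10 µM for 24 h. DCAF8 and WDR76 are WD40-repeat proteins of the kind that bring substrates to a CUL4 ubiquitin ligase, and LSH, the product of HELLS, remodels chromatin. Erastin inhibits system xc-, the exchanger of cystine for glutamate built from SLC7A11 and SLC3A2. None of the groups analysed here carries an empty vector beside oeWDR76, and the sources used here do not say how many siRNAs served each target. Whether paired libraries within a group are separate cultures is not in the labels, so the p-values measure only the spread between these libraries.

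Amino acid carriers differ in what they move and in what drives them. SLC7A5 and SLC7A6 are light chains that reach the membrane only as partners of the heavy chain SLC3A2 and work as exchangers, so the amino acids they bring in are paid for with others that leave. Carriers coupled to sodium, such as SLC38A1 and SLC38A2, load the cell with small neutral amino acids and glutamine, some of which serve the exchangers as export substrates. When amino acids run short, the kinase GCN2 favours translation of the transcription factor ATF4, and several carrier genes are known targets of ATF4. Leucine and arginine that enter through such carriers are sensed by the machinery that activates the growth kinase mTORC1.

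ATF4 binds C/EBP-ATF response elements, and basic helix-loop-helix factors bind the E-box, so both motifs were looked for near the start sites of the carrier genes. RefSeq promoter windows on GRCh38.p14, each of 250 bases before and 50 bases after a start site, were present for all 9 genes, in 14 windows. In 10 of the 14, the bases just after the start site were found in a GENCODE transcript of the same gene. They were not found for the 1 window of SLC7A5 or for either of the 2 windows of SLC38A1. The core TGATGNAA, read on both strands, was found in 4 of these 14 windows and in 3.62% of all 35116 windows in the RefSeq table. The 4 matches are shown with the core in capitals, each in a stretch of 30 bases and read along the strand of the gene. In SLC7A1 it follows the start of the gene by 8 to 15 bases (chr13:29595663-29595692, minus strand). The other 3 matches are at start sites that lie inside the gene as the deposited table bounds it. In SLC1A4 the core stands as its reverse complement over a start site 954 bases into the gene (chr2:64989381-64989410, plus strand). In SLC38A1 it spans a start site 2909 bases in (chr12:46266502-46266531, minus strand), and in SLC1A5 it lies before one 3771 bases in (chr19:46784893-46784922, minus strand).
SLC1A4: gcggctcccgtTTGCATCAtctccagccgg
SLC7A1: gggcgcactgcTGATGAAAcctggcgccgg
SLC38A1: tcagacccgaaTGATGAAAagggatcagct
SLC1A5: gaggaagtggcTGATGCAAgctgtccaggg
The E-box CACGTG, which reads the same on both strands, was found in 3 of the 14 windows and in 7.26% of all windows. None of its matches overlapped a match of the other core. They are in SLC7A5 (chr16:87869620-87869649), SLC43A1 (chr11:57515797-57515826) and SLC1A5 (chr19:46787326-46787355), all on the minus strand and again with the motif in capitals; the start site of the SLC1A5 match lies 1292 bases inside the gene.
SLC7A5: ggccggacgacgCACGTGctccgagctggg
SLC43A1: cagcgggcgagtCACGTGcgcgtgaaactc
SLC1A5: ggcgggagtggtCACGTGgacaggacgggg
Because SLC7A5 carried one of the widest ranges of level among the abundant carriers, the 250 bases before its start site are given whole (chr16:87869508-87869757, minus strand), with 79.6% G or C and the E-box in capitals.
SLC7A5 promoter: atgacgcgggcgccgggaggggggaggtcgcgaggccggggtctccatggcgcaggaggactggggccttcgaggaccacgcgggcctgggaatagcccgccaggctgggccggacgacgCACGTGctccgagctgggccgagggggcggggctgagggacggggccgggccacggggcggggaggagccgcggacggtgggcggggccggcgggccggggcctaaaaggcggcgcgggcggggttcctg
A match is a run of letters and not a shown binding site. SLC7A6, SLC38A2 and SLC6A9 have neither run of letters in these windows.

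The cells carried the markers of a mesenchymal tumour line. VIM ranged from 1273 to 2067 FPKM over the 16 libraries and all 6 mesenchymal markers were above 0 in each, while 4 epithelial, 4 leukocyte and 4 endothelial markers summed to between 1.12 and 6.16 FPKM per list and library. DCAF8 was at 39.7 ± 1.08 FPKM in siNS (mean ± SD, n = 2, as below), 12 ± 0.304 FPKM in siDCAF8 and 15.8 ± 2.23 FPKM in siDCAF8+siLSH. WDR76 was at 3.21 ± 0.445 FPKM in siNS and 267 ± 0.445 FPKM in oeWDR76. Without erastin its libraries were at 5 and 5.31 FPKM in siDCAF8 and at 7.53 and 7.69 FPKM in siDCAF8+siLSH. HELLS was at 4.02 ± 0.0495 FPKM in siNS, 7.14 ± 0.438 in siDCAF8 and 4.06 ± 0.0141 in siDCAF8+siLSH without erastin, so without erastin the siDCAF8+siLSH libraries were below siDCAF8 but not below siNS. With erastin HELLS was at 3.48 ± 0.163 FPKM in siNS and 2.24 ± 0.17 FPKM in siDCAF8+siLSH. HELLS was highest in oeWDR76, at 10.9 ± 0.537 FPKM without erastin and 10.9 ± 0.141 FPKM with it. The 4 oeWDR76 libraries stood apart from the other 12: their values summed to at least 495857 FPKM against at most 455662, and the slope of their relative levels on GC content was 0.185 to 0.232 log2 for each 10% GC against -0.16 to 0.031. The labels give no preparation batch, so an effect of WDR76, of the vector or of a batch that held these 4 libraries cannot be told apart. Depth is unknown from FPKM, and no counting interval is given.

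In siNS cells without erastin, SLC1A5 (132 ± 11.3 FPKM), SLC7A5 (106 ± 5.46 FPKM) and SLC38A2 (105 ± 1.88 FPKM) were the most abundant carriers per unit of transcript length. SLC7A1 (20.3 ± 0.148), SLC43A1 (15.6 ± 0.552), SLC1A4 (11.8 ± 0.148) and SLC7A6 (10.3 ± 0.163) formed a middle tier, and SLC6A9 (1.15 ± 0.141) and SLC38A1 (0.705 ± 0.0778) were near 1 FPKM. The first 3 held 84.0% to 87.1% of the summed FPKM of the 9 carriers in each of the 16 libraries. That sum was 393 and 413 FPKM in the 2 siNS libraries and 251 and 254 FPKM in the 2 siNS libraries given erastin, the lowest of all 16. With erastin it was 290 and 297 FPKM in oeWDR76, and in the remaining 10 libraries it lay between 369 and 454 FPKM. In bulk RNA, fewer cells that express a carrier and less carrier RNA per cell cannot be told apart.

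**Figure D1:**
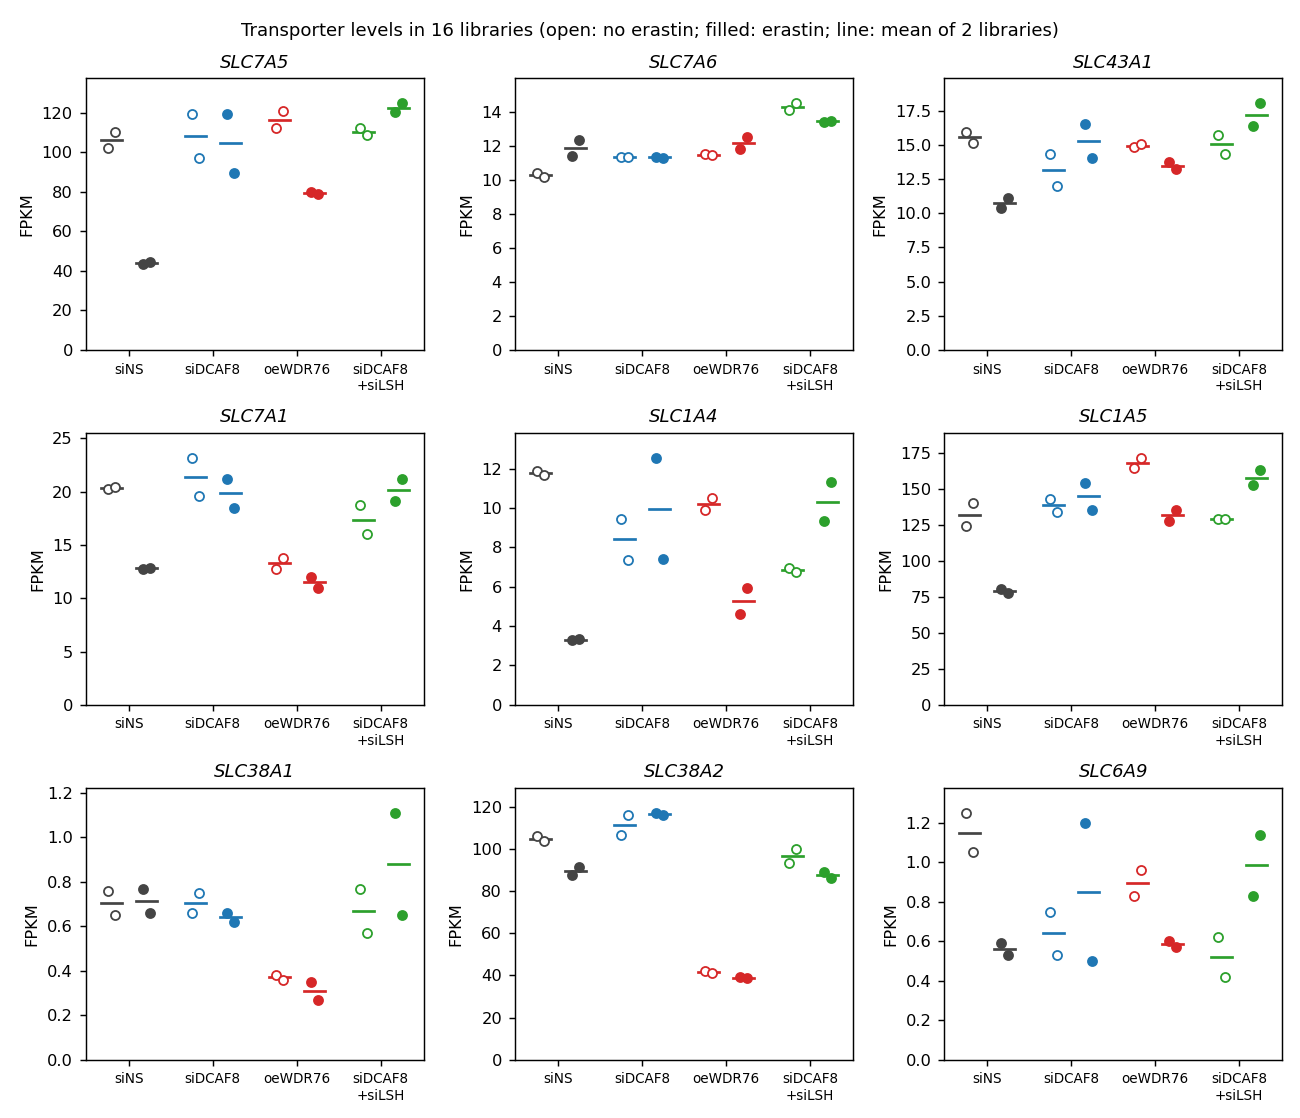
Level of each of the 9 carriers in FPKM (vertical axes, from 0) in the 4 genotypes (horizontal axes); each point is 1 library, open without and filled with erastin, and lines are means of 2 libraries. The filled siNS points lie below the open ones for SLC7A5 (43.3 and 44.6 against 102 and 110 FPKM), and all 4 oeWDR76 points of SLC38A2 lie between 38.6 and 42.3 FPKM, below the other 12.

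Erastin lowered 6 of the 7 tested carriers in siNS cells and raised 1. SLC7A5, SLC1A4, SLC1A5, SLC7A1, SLC43A1 and SLC38A2 fell, and SLC7A6 rose (limma on log2(FPKM + 1), Benjamini-Hochberg adjusted p under 0.05). Over all 11260 genes tested, 37.5% were called, 15.1% higher and 22.4% lower, or 19.8% and 18.3% with quantile normalization. The median log2 difference of the 7 carriers was -0.63, beside -0.03 over all genes tested. None of the 7 was called in siDCAF8 cells, where 40.9% of all genes were, 18.3% higher and 22.5% lower. There, 1 of the 7 had an unadjusted p under 0.05 (SLC43A1), and the lowest adjusted p among the 7 was 0.0719 in limma. After correction for GC and length 2 of the 7 were called higher there, SLC43A1 (0.34 log2, adjusted p = 0.00501) and SLC1A5 (0.21 log2, adjusted p = 0.0165). In oeWDR76 cells SLC7A5, SLC1A4 and SLC1A5 fell and no carrier rose, where 1.45% of all genes were called, 0.471% as higher and 0.977% as lower. With no filter on low values none of the 3 passed (adjusted p of 0.0733 to 0.0975). In siDCAF8+siLSH cells SLC1A4 and SLC1A5 rose and no carrier fell, where 20.2% of all genes were called, 10.6% as higher and 9.54% as lower. Medians of the 7 carriers were 0.06 in siDCAF8, -0.19 in oeWDR76 and 0.18 in siDCAF8+siLSH, beside -0.02, 0.01 and 0.01 over all genes tested.

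Whether the response to erastin itself differed between genotypes was tested as the difference of the 2 responses. Against siNS, the response in siDCAF8 was higher for 6 of 7 carriers and lower for none, with 20.8% of all genes called, 11% higher and 9.84% lower. In siDCAF8+siLSH it was higher for 5 and lower for 1, SLC7A6, with 24.8% of all genes called, 15.6% higher and 9.13% lower (12.6% and 13% with quantile normalization). In oeWDR76 it was higher for 4 and lower for none, with 14.1% of all genes called, 9.04% higher and 5.11% lower (7.04% and 6.91% with median-ratio scaling). The 3 differences share the siNS libraries. Between siDCAF8+siLSH and siDCAF8, the response differed for none of the 7 in limma. There 23.5% of all genes were called, 14.2% as higher and 9.24% as lower (11.8% each with median-ratio scaling). The GC and length correction took these shares to 1% higher and 1.24% lower, so the share over all genes depends on it. Without the correction, 3 carriers had an unadjusted p under 0.05 in this comparison (SLC1A5, SLC38A2 and SLC7A1), and the lowest adjusted p was 0.0567. Without siDCAF8/Erastin replicate 1, SLC1A4, SLC1A5 and SLC7A5 passed (0.68, 0.32 and 0.41 log2, adjusted p = 0.0185, 0.0356 and 0.0299). Without siDCAF8 replicate 2, SLC38A2 (-0.27, adjusted p = 0.0253) and SLC7A1 (0.42, adjusted p = 0.0304) passed, and without siDCAF8+siLSH replicate 1 the same 2 did (-0.26 and 0.41, adjusted p = 0.0306 and 0.0328).

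**Figure D2:**
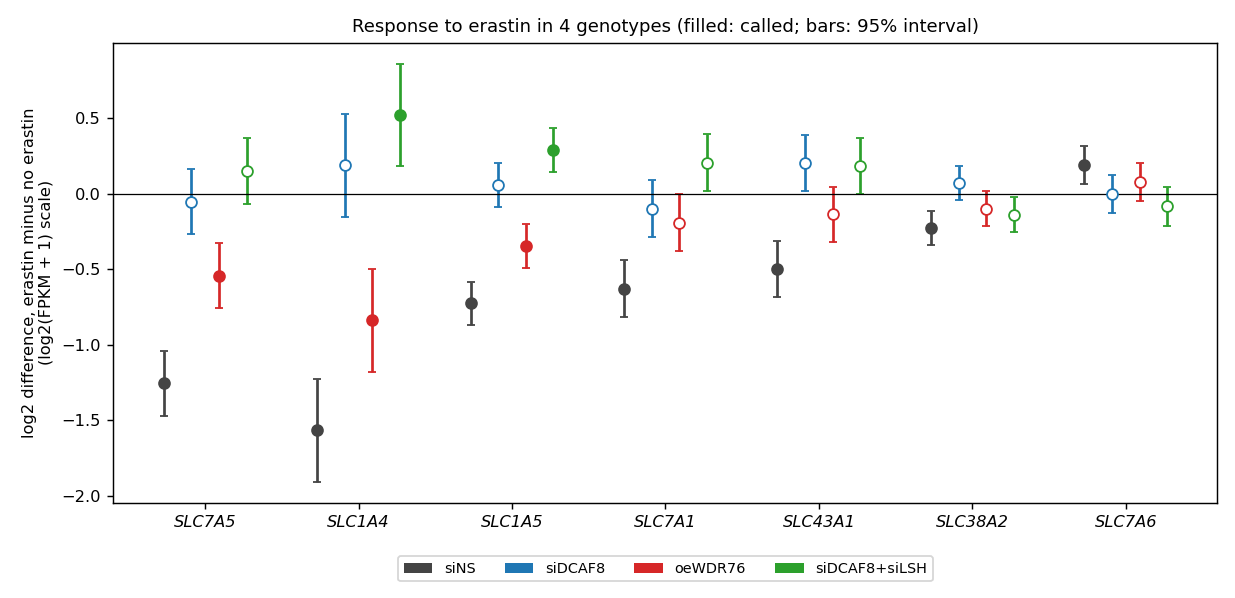
Response to erastin of the 7 tested carriers as a log2 difference on the log2(FPKM + 1) scale (vertical axis), for 4 genotypes by colour, with 95% intervals from limma; filled points passed an adjusted p of 0.05. In siNS, 6 of 7 points are filled below 0, from -1.57 for SLC1A4 to -0.23 for SLC38A2, and in siDCAF8 no point is filled.

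SLC7A5, also called LAT1, is the exchanger that brings in leucine and other large neutral amino acids and pairs with SLC3A2 (gene 8140, chromosome 16, 87830016 to 87869499). In the 2 siNS libraries it was at 102 and 110 FPKM without erastin and at 43.3 and 44.6 FPKM with it. The treated libraries lie far below the untreated ones, by 1.25 log2 (SE 0.10, 2.39-fold lower, limma adjusted p = 2.21e-07). In siDCAF8 it was at 119 and 97.0 FPKM without erastin and at 119 and 89.8 FPKM with it, so that the 2 pairs overlap and differ by -0.05 log2 (95% interval -0.27 to 0.16, adjusted p = 0.701). The difference between these 2 responses was 1.20 log2 (SE 0.14, limma adjusted p = 5.68e-05). In siDCAF8+siLSH it was at 112 and 109 FPKM without and at 120 and 125 FPKM with erastin, a difference of 0.15 log2 that was not called (adjusted p = 0.324). Both treated libraries are nevertheless above both untreated ones, and the response lay 1.40 log2 above that of siNS (SE 0.14, limma adjusted p = 1.16e-05). In oeWDR76 it was at 112 and 121 FPKM without and at 80.2 and 78.9 FPKM with erastin, 1.46-fold lower (adjusted p = 0.0127). That fall was smaller than the fall in siNS by 0.71 log2 (SE 0.14, limma adjusted p = 0.00432). The oeWDR76 call was lost when any 1 of the 4 oeWDR76 libraries was left out, at adjusted p of 0.0553 and 0.164 without untreated replicates 1 and 2, and 0.0983 and 0.104 without treated replicates 1 and 2. Without siDCAF8/Erastin replicate 1, the siDCAF8 response of SLC7A5 passed the test at -0.26 log2 (adjusted p = 0.0441). SLC7A5 has the pseudogene copies SLC7A5P1 and SLC7A5P2, so reads shared with them make its level uncertain to that extent. An antisense transcript, AC126696.2, shares 5.71% of the exon bases of SLC7A5. The counting is not stated to use strand, so its reads cannot be told apart there.

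SLC43A1, or LAT3, lets branched-chain and other neutral amino acids through by facilitated diffusion and needs no partner chain (gene 8501, chromosome 11, 57484531 to 57515719). Its level in siNS was 16 and 15.2 FPKM without and 10.4 and 11.1 FPKM with erastin. It fell 1.41-fold there, with no overlap (log2 -0.50, SE 0.09, limma adjusted p = 0.000323). In siDCAF8 the libraries were at 14.3 and 12 FPKM without and 16.6 and 14.0 FPKM with erastin, which overlap. In siDCAF8+siLSH they were at 15.8 and 14.4 FPKM without and 16.4 and 18.1 FPKM with erastin, which do not overlap but were not called (adjusted p = 0.153). Both responses lay above that of siNS, by 0.70 log2 in siDCAF8 (SE 0.12, limma adjusted p = 0.00102) and 0.68 log2 in siDCAF8+siLSH (adjusted p = 0.00104). In oeWDR76 the levels were 14.8 and 15 FPKM without and 13.7 and 13.3 FPKM with erastin, a difference of -0.14 log2 (adjusted p = 0.514). This response lay 0.36 log2 above that of siNS and was not called (limma adjusted p = 0.0587). It passed with only the groups compared (limma adjusted p = 0.0156) and with a filter at 5 FPKM (adjusted p = 0.0453). Left out singly, siDCAF8 replicate 1 and siDCAF8/Erastin replicate 2 brought the siDCAF8 response of SLC43A1 past the test, each at 0.32 log2 (adjusted p = 0.021 and 0.0234).

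SLC7A6, or y+LAT2, exports arginine in exchange for neutral amino acids and sodium and also pairs with SLC3A2 (gene 9057, chromosome 16, 68264516 to 68301823). It varied least of the tested carriers, with its highest group mean 1.39 times its lowest. In siNS it was at 10.4 and 10.2 FPKM without and 11.4 and 12.4 FPKM with erastin. This small rise of 1.14-fold was called (log2 0.19, SE 0.06, limma adjusted p = 0.0206), and the call was lost without siNS replicate 1, siNS replicate 2 or siNS/Erastin replicate 2 (adjusted p of 0.0574, 0.106 and 0.172) and with only the groups compared in the fit (adjusted p = 0.0655). In siDCAF8 all 4 libraries lay between 11.3 and 11.4 FPKM. In siDCAF8+siLSH they were at 14.1 and 14.5 FPKM without and 13.4 and 13.5 FPKM with erastin, above the other 12 libraries. The response in siDCAF8+siLSH lay below that of siNS by 0.27 log2 (SE 0.08, limma adjusted p = 0.0268), and this call was lost without any 1 of siDCAF8+siLSH replicate 2, siDCAF8+siLSH/Erastin replicates 1 and 2, siNS replicate 2 and siNS/Erastin replicate 2 (adjusted p of 0.0611 to 0.109), or with only the groups compared (adjusted p = 0.0662). SLC7A6OS, on the opposite strand, shares 44.4% of the exon bases of SLC7A6. The counting is not stated to use strand, so reads of the 2 genes cannot be told apart and the values of SLC7A6 are uncertain. SLC7A6OS was at 10 and 9.69 FPKM in siNS and at 9.96 and 9.27 FPKM in siDCAF8+siLSH. Another entry on the opposite strand, AC020978.9, shares 11.1% of the exon bases of SLC7A6.

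SLC7A1, or CAT1, takes up arginine and lysine without a partner chain (gene 6541, chromosome 13, 29509414 to 29595688). Its siNS level went from 20.2 and 20.4 FPKM to 12.8 and 12.8 FPKM with erastin, a fall of 1.55-fold with no overlap (log2 -0.63, SE 0.09, limma adjusted p = 5.25e-05). In siDCAF8 it was at 23.1 and 19.6 FPKM without and 21.2 and 18.5 FPKM with erastin, and in siDCAF8+siLSH at 18.7 and 16 FPKM without and 19.1 and 21.1 FPKM with it. Neither difference was called (-0.10 and 0.21 log2, adjusted p = 0.393 and 0.117), and the second passed without siDCAF8+siLSH replicate 1 (0.31 log2, adjusted p = 0.0452). Both responses were above that of siNS, by 0.53 log2 (SE 0.13, limma adjusted p = 0.00814) and 0.83 log2 (SE 0.13, adjusted p = 0.000304). In oeWDR76 the level was 12.7 and 13.8 FPKM without and 11.9 and 11 FPKM with erastin. Against siNS it was lower without erastin (log2 -0.58, limma adjusted p = 1.76e-05). With erastin in both it was not called (log2 -0.15, limma adjusted p = 0.147), and it was at 0.12 log2 after the GC and length correction. The oeWDR76 response was above that of siNS by 0.44 log2 (adjusted p = 0.031), a call lost without oeWDR76 replicate 1, oeWDR76/Erastin replicate 1 or any 1 of the 4 siNS libraries (adjusted p of 0.0626 to 0.112), or with no filter (adjusted p = 0.0843).

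SLC1A4, or ASCT1, exchanges alanine, serine, cysteine and threonine (gene 6509, chromosome 2, 64988445 to 65023865). In siNS it was at 11.9 and 11.7 FPKM without and 3.28 and 3.34 FPKM with erastin. This was the largest fall among the 7 carriers, 2.96-fold on the FPKM + 1 scale, which understates it at such levels (log2 -1.57, SE 0.16, limma adjusted p = 2.36e-06). In siDCAF8 it was at 9.46 and 7.38 FPKM without and 12.5 and 7.40 FPKM with erastin; the treated libraries differ from each other by more than the groups do. The response of 0.19 log2 was not called (adjusted p = 0.368), and without siDCAF8/Erastin replicate 2 it was 0.53 log2 (adjusted p = 0.00785). In siDCAF8+siLSH it rose from 6.94 and 6.76 FPKM to 9.32 and 11.3 FPKM, with no overlap (1.44-fold, limma adjusted p = 0.0303). That call was lost without siDCAF8+siLSH replicate 1, siDCAF8+siLSH replicate 2 or siDCAF8+siLSH/Erastin replicate 2 (adjusted p of 0.0768, 0.129 and 0.213), after the GC and length correction (0.0542) and with no filter (0.12). In oeWDR76 it fell from 9.90 and 10.5 FPKM to 4.63 and 5.96 FPKM (1.79-fold, limma adjusted p = 0.0151), a call lost without oeWDR76 replicate 1, oeWDR76 replicate 2 or oeWDR76/Erastin replicate 1 (adjusted p of 0.0788, 0.149 and 0.202). Against siNS, the response was higher by 1.76 log2 in siDCAF8 (SE 0.23, limma adjusted p = 9.71e-05) and by 2.09 log2 in siDCAF8+siLSH (adjusted p = 1.92e-05). In oeWDR76 it was higher by 0.73 log2 (adjusted p = 0.0413), which did not pass when any 1 of 7 of the 8 libraries involved was left out, all but oeWDR76/Erastin replicate 1 (adjusted p of 0.0777 to 0.163). Nor did it pass with median-ratio scaling, quantile normalization or no filter (adjusted p = 0.0515, 0.0511 and 0.144).

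SLC1A5, or ASCT2, is a sodium-dependent exchanger known for glutamine uptake in tumour cells (gene 6510, chromosome 19, 46774883 to 46788585). In siNS it was at 124 and 140 FPKM without and 80.6 and 77.9 FPKM with erastin, 1.66-fold lower (log2 -0.73, SE 0.07, limma adjusted p = 1.08e-06). In siDCAF8 the values were 143 and 134 FPKM without and 154 and 135 FPKM with erastin, which overlap (0.06 log2, adjusted p = 0.519). In siDCAF8+siLSH it rose from 129 and 129 FPKM to 152 and 163 FPKM, 1.22-fold (limma adjusted p = 0.00734), a call lost without siDCAF8+siLSH/Erastin replicate 2 (adjusted p = 0.0789). The GC and length correction took this rise from 0.29 to 0.19 log2 (adjusted p = 0.0379). In oeWDR76 it fell from 164 and 171 FPKM to 128 and 136 FPKM, 1.27-fold (adjusted p = 0.0182), a call lost without any 1 of the 4 oeWDR76 libraries (adjusted p of 0.0606 to 0.207). Even after that fall, both oeWDR76 libraries given erastin lay between the 2 siNS libraries without it. The responses were above that of siNS by 0.79 log2 in siDCAF8 (SE 0.10, limma adjusted p = 6.78e-05), 1.01 log2 in siDCAF8+siLSH (adjusted p = 5.63e-06) and 0.38 log2 in oeWDR76 (adjusted p = 0.0165). The last call was lost without oeWDR76 replicate 1, oeWDR76/Erastin replicate 2 or siNS replicate 2 (adjusted p of 0.0635, 0.0711 and 0.0879). An antisense transcript, AC008622.2, shares 23.4% of the exon bases of SLC1A5, and its reads cannot be told apart either.

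SLC38A2, or SNAT2, is the sodium-coupled carrier of small neutral amino acids best known for its induction when amino acids are scarce (gene 54407, chromosome 12, 46358188 to 46372862). In siNS it was at 106 and 104 FPKM without and 87.6 and 91.3 FPKM with erastin, 1.17-fold lower, the smallest fall of the 6 (log2 -0.23, SE 0.05, limma adjusted p = 0.00349). In siDCAF8 it was at 106 and 116 FPKM without and 117 and 116 FPKM with erastin, a difference of 0.07 log2 that was not called (adjusted p = 0.321). This response was above that of siNS by 0.30 log2 (SE 0.08, limma adjusted p = 0.0121), a call lost without siDCAF8 replicate 1, siNS replicate 1 or siNS/Erastin replicate 1 (adjusted p of 0.0619, 0.0523 and 0.0568) or with the GC and length correction (adjusted p = 0.0548). In siDCAF8+siLSH the level was 93.5 and 99.8 FPKM without and 88.9 and 86.3 FPKM with erastin (log2 -0.14, adjusted p = 0.0792), a difference that passed without siDCAF8+siLSH replicate 1 (log2 -0.19, adjusted p = 0.0496). In oeWDR76 it was at 42.3 and 41.3 FPKM without and 39.4 and 38.6 FPKM with erastin, and no other group came near these 4 libraries. The order of its 8 group means was siDCAF8 with erastin, siDCAF8, siNS, siDCAF8+siLSH, siNS with erastin, siDCAF8+siLSH with erastin, oeWDR76 and oeWDR76 with erastin, and values overlapped in 1 of the 7 neighbouring pairs, the fifth and the sixth group.

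SLC38A1, or SNAT1, is a sodium-coupled carrier for glutamine (gene 81539, chromosome 12, 46183055 to 46269425), and SLC6A9, or GlyT1, takes up glycine, one of the 3 amino acids of glutathione (gene 6536, chromosome 1, 43996483 to 44031492). SLC38A1 was at 0.76 and 0.65 FPKM in siNS and 0.38 and 0.36 FPKM in oeWDR76 without erastin, and at 0.77 and 0.66 against 0.35 and 0.27 FPKM with it. Its 4 oeWDR76 libraries lie below the other 12, as they do for SLC38A2. Its highest library, 1.11 FPKM, was siDCAF8+siLSH/Erastin replicate 1, while replicate 2 of that group was at 0.65 FPKM. SLC6A9 was at 1.25 and 1.05 FPKM in siNS and at 0.59 and 0.53 FPKM with erastin, and in siDCAF8+siLSH at 0.62 and 0.42 FPKM without and 0.83 and 1.14 FPKM with erastin. These pairs do not overlap. In siDCAF8/Erastin its replicates were 1.20 and 0.50 FPKM. The deposited values have 2 decimals, which is coarse at these levels. CCDC24, a gene on the opposite strand, shares 7.83% of the exon bases of SLC6A9, and its reads cannot be told apart there. With no filter on low values, SLC6A9 was called lower in siDCAF8+siLSH than in siNS without erastin (log2 -0.50, limma adjusted p = 0.0185) and with a higher response than in siNS (0.85, adjusted p = 0.0268), while its fall with erastin in siNS was not called (log2 -0.46, adjusted p = 0.0509). SLC38A1 was then called lower in oeWDR76 than in siNS without erastin (log2 -0.31, limma adjusted p = 0.0193) and with it (log2 -0.39, adjusted p = 0.00597).

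Without erastin, 2 of the 7 carriers were called against siNS in siDCAF8, 3 in siDCAF8+siLSH and 4 in oeWDR76, and SLC7A5 was in none of these counts. Its differences from siNS were 0.02 log2 in siDCAF8 (95% interval -0.20 to 0.23), 0.06 in siDCAF8+siLSH (-0.16 to 0.27) and 0.13 in oeWDR76 (-0.08 to 0.35), with limma adjusted p of 0.252 to 0.893. The last was -0.13 log2 with quantile normalization and passed with only the groups compared (0.13 log2, adjusted p = 0.0452). In siDCAF8, SLC1A4 was lower than in siNS (log2 -0.45, SE 0.16, limma adjusted p = 0.0231) and so was SLC43A1 (log2 -0.23, SE 0.09, adjusted p = 0.0294). These are 2 of 7 carriers called, both lower, where 61% of all genes were called, 31% higher and 29.9% lower. Both calls were lost without siNS replicate 1, siNS replicate 2 or siDCAF8 replicate 2 (adjusted p of 0.0707 to 0.218 for SLC1A4 and 0.0535 to 0.351 for SLC43A1), and with no filter (0.0886 and 0.0684), where SLC7A6 was called higher instead (0.13 log2, adjusted p = 0.045). Without siDCAF8 replicate 1, SLC43A1 was at -0.35 log2 (adjusted p = 0.0058). In siDCAF8+siLSH, SLC7A6 was 1.36-fold higher than in siNS (log2 0.44, limma adjusted p = 6.12e-06), SLC1A4 was 1.63-fold lower (log2 -0.70, adjusted p = 0.00102) and SLC7A1 was 1.16-fold lower (log2 -0.22, adjusted p = 0.039). That makes 1 higher and 2 lower, beside 35.9% and 30.9% of all genes, 66.8% in all. The SLC7A1 call was lost without siDCAF8+siLSH replicate 2, siNS replicate 1 or siNS replicate 2 (adjusted p of 0.351, 0.0977 and 0.121), after the GC and length correction (0.0747) and with no filter (0.0874). SLC38A2 was 0.12 log2 lower there and not called (adjusted p = 0.065); it passed without siDCAF8+siLSH replicate 2 (log2 -0.16, adjusted p = 0.0338), with median-ratio scaling, with quantile normalization and after the GC and length correction (log2 -0.16, -0.18 and -0.25).

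Without erastin, the widest difference from siNS among the 7 tested carriers was that of SLC38A2 in oeWDR76. Against siNS it was 2.47-fold lower without erastin (log2 -1.31, SE 0.05, limma adjusted p = 2.41e-12) and 2.26-fold lower with it (log2 -1.18, SE 0.05, adjusted p = 7.63e-12). SLC38A2 has the lowest GC content of the 9 carriers, 38.9%, and the oeWDR76 libraries favour GC-rich genes. Once GC content and length were corrected for, the differences were -1.06 and -0.98 log2 (adjusted p = 4.78e-12 and 1.35e-11), and with median-ratio scaling -1.38 and -1.29 log2. SLC7A1 was 1.5-fold lower in oeWDR76 without erastin (log2 -0.58, SE 0.09, limma adjusted p = 1.76e-05), and -0.37 log2 after the correction. SLC1A5 was 1.27-fold higher (log2 0.35, adjusted p = 0.000234), but 0.06 log2 after the correction (adjusted p = 0.409) and 0.12 log2 with quantile normalization (adjusted p = 0.137). SLC43A1, not called (log2 -0.06, adjusted p = 0.58), was called lower after the correction (log2 -0.35, adjusted p = 0.00119). SLC7A6 was called 1.11-fold higher (adjusted p = 0.0378), a call lost with median-ratio scaling, with quantile normalization, with only the groups compared and without any 1 of the 4 libraries compared, oeWDR76 replicates 1 and 2 and siNS replicates 1 and 2 (adjusted p of 0.053 to 0.24). After the correction it was at 0.39 log2 against 0.14 without it (adjusted p = 1.73e-05). Of the 7 carriers, 2 were thus called higher and 2 lower without erastin, beside 41.6% and 32% of all genes, 73.6% in all.

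Between siDCAF8+siLSH and siDCAF8, the comparison that adds LSH depletion, 1 carrier was called higher and 2 lower without erastin, beside 26.4% and 21.7% of all genes, 48.2% in all. SLC7A6 was higher (log2 0.31, SE 0.06, limma adjusted p = 0.000471), and SLC7A1 and SLC38A2 were lower (log2 -0.28 and -0.20, adjusted p = 0.0155 and 0.00603). The SLC7A1 call was lost without siDCAF8 replicate 1 or siDCAF8+siLSH replicate 2 (adjusted p of 0.214 and 0.194) and after the GC and length correction (0.0918), and the SLC38A2 call without siDCAF8 replicate 2 or siDCAF8+siLSH replicate 1 (adjusted p of 0.083 and 0.0564) and with only the groups compared (0.0532), while after the correction SLC38A2 was at -0.35 log2 (adjusted p = 5.51e-06). SLC43A1 passed without siDCAF8 replicate 1 (0.31 log2, adjusted p = 0.0226) and after the correction (0.28 log2, adjusted p = 0.0126). With erastin, SLC7A6 was again higher (log2 0.23, limma adjusted p = 0.00479) and SLC38A2 lower, 88.9 and 86.3 FPKM against 117 and 116 FPKM (1.33-fold, log2 -0.41, SE 0.05, adjusted p = 1.21e-05). These are 1 of 7 called higher and 1 lower, beside 30.4% and 19.3% of all genes, 49.7% in all (24.2% and 24.6% with median-ratio scaling). The count rests on 1 library: without siDCAF8/Erastin replicate 1, 5 carriers were called higher and 1 lower, with SLC7A5, SLC1A4, SLC1A5 and SLC43A1 added (0.45, 0.42, 0.22 and 0.28 log2, adjusted p = 0.0012, 0.0191, 0.03 and 0.0319). With all 16 libraries and erastin, SLC7A5 was not called (0.24 log2, limma adjusted p = 0.0585), but passed with a filter at 5 FPKM (adjusted p = 0.0427). DCAF8 itself was less depleted in siDCAF8+siLSH than in siDCAF8, as given above, so the 2 groups differ in more than LSH.

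With erastin, most carriers were higher in the other genotypes than in siNS. In siDCAF8, 6 of 7 were called higher and none lower, beside 34.8% and 30% of all genes, 64.8% in all. SLC1A4 was 2.47-fold (limma adjusted p = 2.19e-06), SLC7A5 2.32-fold (adjusted p = 2.82e-08) and SLC1A5 1.81-fold higher (adjusted p = 1.59e-08), followed by SLC7A1 (1.51-fold), SLC43A1 (1.39-fold) and SLC38A2 (1.30-fold). In siDCAF8+siLSH, 6 of 7 were called higher and none lower, beside 39.3% and 26.7% of all genes (66% in all), or 31.9% and 33.1% with median-ratio scaling. SLC7A5 was 2.75-fold (limma adjusted p = 3.68e-09), SLC1A4 2.61-fold (adjusted p = 1.18e-06) and SLC1A5 1.98-fold higher (adjusted p = 3.68e-09). SLC38A2 was not called there (log2 -0.03, adjusted p = 0.652), while SLC7A6 was (log2 0.17, adjusted p = 0.0214); that last call was lost without siDCAF8+siLSH/Erastin replicate 1 or 2 or siNS/Erastin replicate 1 (adjusted p of 0.0636, 0.0784 and 0.189), with median-ratio scaling (0.214), with quantile normalization (0.12) and with only the groups compared (0.0687). In oeWDR76, 4 were called higher and 1, SLC38A2, lower, beside 45.2% and 31% of all genes (76.2% in all), or 35.2% and 36.9% after the GC and length correction. SLC7A5 was 1.79-fold (limma adjusted p = 1.01e-06), SLC1A5 1.65-fold (adjusted p = 4.87e-08), SLC1A4 1.45-fold (adjusted p = 0.00597) and SLC43A1 1.24-fold higher (adjusted p = 0.00415). The SLC1A4 call was lost without oeWDR76/Erastin replicate 2 (adjusted p = 0.0829), and SLC43A1 turned to -0.046 log2 after the GC and length correction (adjusted p = 0.629). That correction took SLC1A5 from 0.73 to 0.38 log2 (adjusted p = 4.69e-05), and SLC7A6, at 0.03 log2 without it (adjusted p = 0.607), was called higher with it (0.32 log2, adjusted p = 0.000116). SLC7A1 was not called in oeWDR76 (log2 -0.15, adjusted p = 0.147), but was called lower with median-ratio scaling (log2 -0.25, adjusted p = 0.0191), while after the correction it was at 0.12 log2 (adjusted p = 0.171). The median log2 difference of all genes in this comparison was 0.11, against 0.31 for the 7 carriers. These 3 comparisons share the siNS libraries given erastin, in which SLC7A5, SLC1A4, SLC1A5 and SLC43A1 were at their lowest of all 16 libraries.

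**Figure D3:**
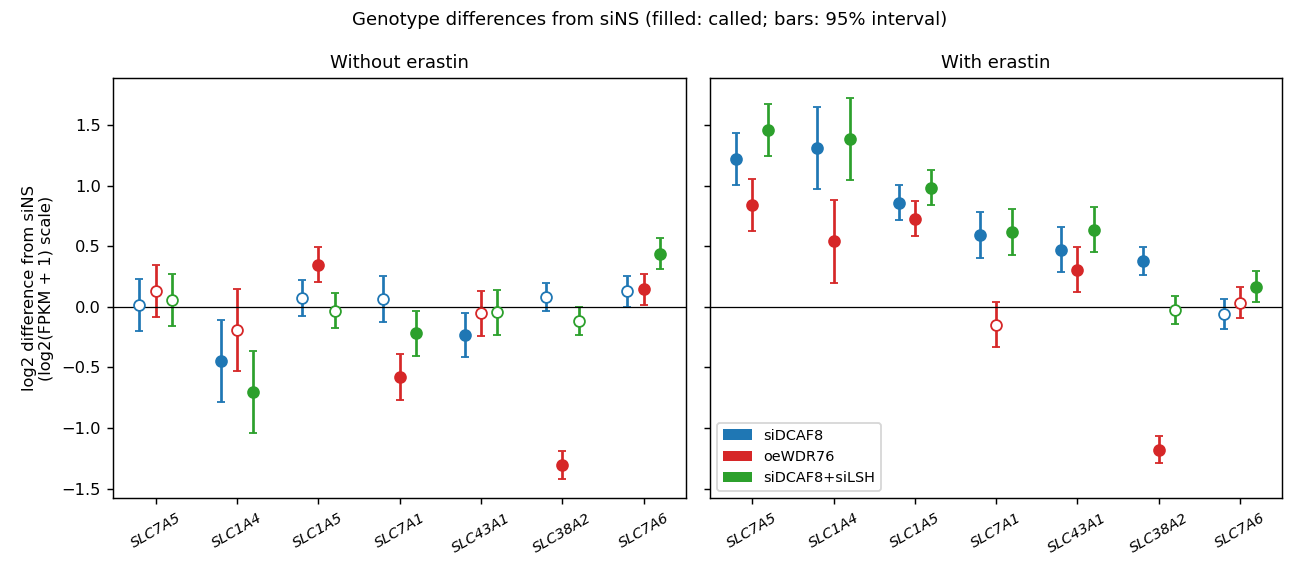
Log2 difference from siNS of the 7 tested carriers on the log2(FPKM + 1) scale (vertical axis), without erastin (left) and with it (right), with 95% intervals from limma; colours are genotypes and filled points passed an adjusted p of 0.05. SLC7A5 lies near 0 in all genotypes on the left and at 0.84 to 1.46 on the right, and SLC38A2 in oeWDR76 is at -1.31 and -1.18.

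SLC3A2, the heavy chain that SLC7A5, SLC7A6 and SLC7A11 share, fell with erastin in siNS as SLC7A5 did, but the 2 did not have the same calls in every group. It was at 102 and 108 FPKM in siNS and 54.9 and 59.4 FPKM with erastin, 1.82-fold lower (log2 -0.86, SE 0.06, limma adjusted p = 2.95e-08). In siDCAF8 it rose from 73.7 and 67.9 FPKM to 92.3 and 92.1 FPKM (1.30-fold, adjusted p = 0.000112), where SLC7A5 was not called. Its highest levels were in oeWDR76, at 169 and 176 FPKM without and 136 and 137 FPKM with erastin. There it was above siNS by 0.71 log2 without erastin (limma adjusted p = 9.66e-09) and 1.24 log2 with it (adjusted p = 9.62e-12), or 0.39 and 0.86 log2 after the GC and length correction. In siDCAF8+siLSH it was at 87.3 and 93.0 FPKM without and 98.7 and 104 FPKM with erastin. SLC7A11, the light chain of system xc-, was at 5.86 and 5.43 FPKM in siNS and 2.02 and 2.69 FPKM with erastin, and at 6.78 and 5.22 FPKM in siDCAF8 and 15.4 and 9.32 FPKM with erastin. Its response was thus -0.99 log2 in siNS and 0.90 log2 in siDCAF8 (limma adjusted p = 0.000166 and 0.000356), with the 2 treated siDCAF8 libraries unequal in the way those of SLC1A4 were. In siDCAF8+siLSH SLC7A11 also rose, from 5.89 and 5.47 FPKM to 9.71 and 11.1 FPKM (log2 0.77, limma adjusted p = 0.00288). In oeWDR76 its response was not called (log2 -0.38, limma adjusted p = 0.301). Without erastin it was lower there than in siNS (log2 -0.88, limma adjusted p = 9.75e-05), but not called after the GC and length correction (log2 -0.29, adjusted p = 0.145).

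Of 26 further amino acid carriers of the plasma membrane and lysosome, SLC3A2 and SLC7A11 included, 24 were in the table and 12 were tested. Erastin in siNS raised 1 and lowered 4 of the 12, in siDCAF8 it raised 3 and lowered 1, in oeWDR76 it lowered 1, and in siDCAF8+siLSH it raised 3 and lowered 1. Over all genes the shares called higher and lower were 15.1% and 22.4% in siNS, 18.3% and 22.5% in siDCAF8, 0.471% and 0.977% in oeWDR76, and 10.6% and 9.54% in siDCAF8+siLSH. Medians of the 12 were -0.12, 0.04, -0.03 and 0.18 log2, beside -0.03, -0.02, 0.01 and 0.01 over all genes. The call in oeWDR76 was lost without oeWDR76 replicate 2 or either oeWDR76/Erastin library, and the 4 calls in siDCAF8+siLSH became 2 without siDCAF8+siLSH replicate 2 or siDCAF8+siLSH/Erastin replicate 1. The carrier that rose in siNS was SLC6A6, which takes up taurine: it was at 28.7 and 28.4 FPKM without and 54.8 and 52.3 FPKM with erastin (log2 0.88, SE 0.07, limma adjusted p = 3.06e-07). In the other genotypes given erastin SLC6A6 lay between 25.0 and 29.8 FPKM. Its response was lower than in siNS by 0.77 log2 in siDCAF8, 0.78 in oeWDR76 and 0.63 in siDCAF8+siLSH (limma adjusted p = 0.000155, 0.000267 and 0.000587). SLC1A3, a glutamate and aspartate carrier, was at 42.4 and 40.1 FPKM in siNS, 20.2 and 21.6 FPKM in siDCAF8, 34.0 and 34.4 FPKM in siDCAF8+siLSH and 13.4 and 12.8 FPKM in oeWDR76. All 3 genotypes were called lower than siNS without erastin (log2 -0.95, -0.26 and -1.58 in that order, limma adjusted p = 1.96e-09, 0.0012 and 1.02e-12), and 6 of the 12 carriers were called lower in each of them, with 1, 2 and 2 higher in siDCAF8, oeWDR76 and siDCAF8+siLSH. The shares of all genes called lower there were 29.9%, 32% and 30.9%, and higher 31%, 41.6% and 35.9%. The 8 calls in siDCAF8+siLSH became 5 without siDCAF8+siLSH replicate 2 or siNS replicate 2.

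The ATF4 pathway was followed through 27 genes that are no transporters, all of them tested. In siNS given erastin 16 fell and 3 rose (median -0.30 log2), in oeWDR76 9 fell and none rose (median -0.30), in siDCAF8 11 rose and 2 fell (median 0.15), and in siDCAF8+siLSH 17 rose and none fell (median 0.36). Of all genes, 22.4% fell and 15.1% rose in siNS (median -0.03), 0.977% and 0.471% in oeWDR76 (median 0.01), 22.5% and 18.3% in siDCAF8 (median -0.02), and 9.54% and 10.6% in siDCAF8+siLSH (median 0.01). Without siNS replicate 2 the siNS count became 11 lower and 1 higher, and the siDCAF8+siLSH count became 11 and 10 higher without siDCAF8+siLSH replicate 2 and siDCAF8+siLSH/Erastin replicate 2. The oeWDR76 count was 1 or 2 when any 1 of the 4 oeWDR76 libraries was left out, 2 with no filter, 5 after the GC and length correction and 17 with only the groups compared, all of them lower. CHAC1, which degrades glutathione, went from 33.8 and 37.9 FPKM to 3.71 and 5.41 FPKM in siNS (log2 -2.74, SE 0.14, limma adjusted p = 3.75e-09). Without erastin it was already at 7.2 and 6.15 FPKM in siDCAF8 and at 3.34 and 3.37 FPKM in siDCAF8+siLSH. ASNS, which makes asparagine, went from 30.4 and 26.6 FPKM to 78.3 and 54.6 FPKM in siDCAF8 (log2 1.18, SE 0.13, limma adjusted p = 5.47e-06). In siNS without erastin ASNS was at 68.5 and 67.65 FPKM. CTH, the enzyme that releases cysteine from cystathionine, was at 9.30 and 8.36 FPKM in siNS, 3.84 and 4.19 FPKM with erastin, and 21.4 and 16.6 FPKM in siDCAF8 with erastin. Its response in siDCAF8 was 1.94 log2 above that in siNS (SE 0.15, limma adjusted p = 1.20e-06). The responses of 21 of the 27 genes were higher in siDCAF8 than in siNS and that of 1 was lower (median 0.80 log2). In siDCAF8+siLSH 22 were higher and 3 lower, and in oeWDR76 9 were higher and 1 lower, or 6 and none without siNS/Erastin replicate 1. Of all genes, 11%, 15.6% and 9.04% had a higher response in siDCAF8, siDCAF8+siLSH and oeWDR76, and 9.84%, 9.13% and 5.11% a lower one. The genotypes already differed without erastin. Against siNS, 12 of the 27 genes were lower and 7 higher in siDCAF8, beside 29.9% and 31% of all genes. In siDCAF8+siLSH 18 were lower and 5 higher, beside 30.9% and 35.9%. In oeWDR76 7 were lower and 13 higher, beside 32% and 41.6%.

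Per library, the median of these 27 genes relative to each gene's own mean was 0.15 and 0.20 log2 in siNS and -0.09 and -0.11 log2 with erastin. It was 0.33 and 0.34 in oeWDR76 and 0.02 and 0.06 with erastin, and 0.02 and -0.05 in siDCAF8 and 0.21 and 0.05 with erastin. The lowest values were those of siDCAF8+siLSH without erastin, -0.35 and -0.28, which went to -0.09 and 0.08 with it. In those 2 lowest libraries SLC7A5 was at 112 and 109 FPKM, while SLC1A4 was at 6.94 and 6.76 FPKM, below its siNS level. In the oeWDR76 libraries without erastin, the highest on this axis, SLC38A2 was at 42.3 and 41.3 FPKM. The carriers therefore did not share one order along this measure, and its part in their levels was not tested.

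**Figure D4:**
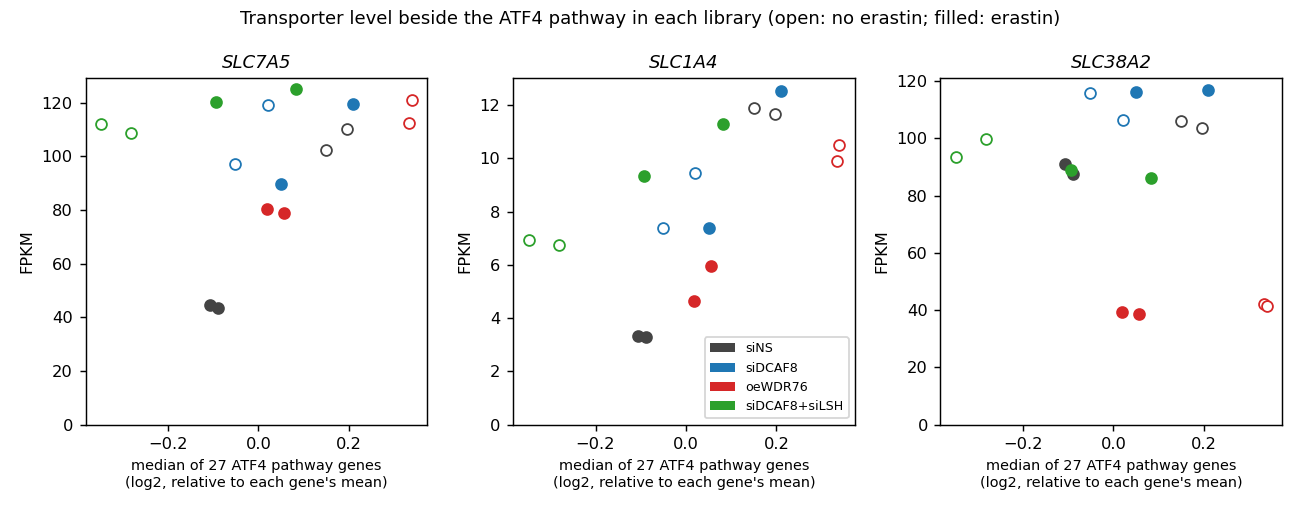
Level of SLC7A5, SLC1A4 and SLC38A2 in FPKM (vertical axes) against the median of 27 ATF4 pathway genes relative to each gene's mean, in log2 (horizontal axes); each point is 1 of 16 libraries, coloured by genotype, open without and filled with erastin. The siDCAF8+siLSH libraries without erastin lie farthest left (-0.35 and -0.28), with SLC7A5 at 112 and 109 FPKM, and the oeWDR76 libraries lie lowest for SLC38A2.

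Of 15 genes of amino acid sensing by mTORC1, 13 were in the table and 12 tested. Erastin lowered 7 and raised 2 of the 12 in siNS, lowered 5 and raised 1 in siDCAF8, lowered 1 in oeWDR76, and raised 3 in siDCAF8+siLSH, where 37.5%, 40.9%, 1.45% and 20.2% of all genes were called. The siNS count of 9 was 5 with median-ratio scaling or without siNS replicate 1, and 3 without siNS replicate 2 or siNS/Erastin replicate 1. The oeWDR76 call was lost without oeWDR76 replicate 1, oeWDR76 replicate 2 or oeWDR76/Erastin replicate 2. The siDCAF8+siLSH count was 1 with no filter and 1 without siDCAF8+siLSH replicate 2. It was 1 when siDCAF8+siLSH/Erastin replicate 1 was left out, and none passed in limma when replicate 2 of that group was. SESN2, a leucine sensor that also stands in the ATF4 list, was at 27.4 and 29.7 FPKM in siNS and 12.7 and 11 FPKM with erastin (log2 -1.21, SE 0.09, limma adjusted p = 7.10e-08). In siDCAF8 it was at 39.4 and 33.5 FPKM without and 44.6 and 36.9 FPKM with erastin. Its response was higher than in siNS by 1.36 log2 in siDCAF8 (limma adjusted p = 4.18e-06), 0.65 in oeWDR76 and 1.54 in siDCAF8+siLSH. Among the other tested genes of this list, 1 was called with a different response in siDCAF8, none in oeWDR76 and 2 in siDCAF8+siLSH. A different response was called for 20.8%, 14.1% and 24.8% of all genes in these genotypes, in that order. The gene in siDCAF8 was SLC38A9, the lysosomal arginine sensor (0.50 log2, limma adjusted p = 0.0231). Those in siDCAF8+siLSH were NPRL3, a part of the GATOR1 complex (0.41 log2, limma adjusted p = 0.0046), and the GTPase RRAGA (0.35 log2, adjusted p = 0.0136). The siDCAF8 count of 2, SESN2 included, was 1 with no filter and without siDCAF8 replicate 1, siDCAF8/Erastin replicate 1, siNS replicate 1 or siNS/Erastin replicate 1.

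Among the carriers, SLC7A5, SLC1A5, SLC1A4 and SLC43A1 had similar profiles over the 16 libraries. Pearson's r of log2(FPKM + 1) with SLC7A5 was 0.93 for SLC1A5, 0.89 for SLC1A4 and 0.87 for SLC43A1, and it was 0.60 for SLC7A1, 0.09 for SLC7A6 and 0.06 for SLC38A2. SLC38A2 was nearest to SLC7A1 among the carriers (r = 0.78). These are descriptions over 16 libraries of 8 groups, which share the group effects above and are not independent. Among 9203 other genes whose group means spanned at least 0.5 log2, the profile nearest to SLC7A5 was that of TMEM268 (r = 0.94) and the nearest to SLC1A4 that of GOT1 (r = 0.92), the cytosolic aspartate aminotransferase. CARS, the cysteine-tRNA ligase, was nearest to SLC1A5 (r = 0.97), followed by GPT2 (r = 0.97), the mitochondrial alanine aminotransferase. The nearest profiles were DDR2 for SLC7A1 (r = 0.97), G3BP2 for SLC7A6 (r = 0.96), LRBA for SLC38A2 (r = 0.99) and MOCOS for SLC43A1 (r = 0.88).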

How the data were processed

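RNA-seq libraries of HT-1080 cells were made, per the labels' protocols, from Trizol RNA amplified with Smart-seq v4 and a NEBNext Ultra DNA kit, and sequenced on a BGISEQ500. The deposited values are FPKM with 2 decimals. The submitters' processing notes name StringTie and GRCh38; version, aligner, annotation release and strand setting are not stated there or in the labels. It has 24107 entries, of which 6555 are empty. FPKM hold no depth, and precision is known only from how closely paired libraries match (within-group Pearson's r from 0.996 to 0.997). Treatment was read from the group names, because the treatment field mentions erastin for all libraries.

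After a filter on mean FPKM (1 or more, 11260 genes), log2(FPKM + 1) was fitted with 8 group means in one limma 3.58.1 model (R 4.3.3, eBayes with trend). Tests were two-sided, with Benjamini-Hochberg adjustment over all genes within each of 16 comparisons and a threshold of 0.05. The fit was tested on simulated data. Python 3.11.15 with pandas 2.3.3 prepared tables. Named are all 9 members, the targeted genes, SLC3A2, SLC7A11, from each list up to 3 called genes of lowest p per comparison, and the 3 genes of most similar profile. The members and lists were chosen with earlier results of these data known. Alternatives were a pseudocount of 0.1, no filter, a filter at 5 FPKM, median-ratio scaling, quantile normalization, a replicate block, only the groups compared, a correction for GC content and length, and leaving out each library. Gene coordinates are those of the deposited table, exon overlaps are from GENCODE, and sequences are from RefSeq.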

Additional observations from a re-analysis of the deposited data

Results flagged for a closer look

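The erastin response of a carrier differed between 2 genotypes in 16 cases, by limma's test of the difference itself with an adjusted p under 0.05. Relative to siNS, the response in siDCAF8 was higher by 1.76 log2 for SLC1A4, 1.20 for SLC7A5, 0.79 for SLC1A5, 0.70 for SLC43A1, 0.53 for SLC7A1 and 0.30 for SLC38A2. In siDCAF8+siLSH it was higher by 2.09 log2 for SLC1A4, 1.40 for SLC7A5, 1.01 for SLC1A5, 0.83 for SLC7A1 and 0.68 for SLC43A1, and lower for SLC7A6 (-0.27). In oeWDR76 it was higher by 0.73 log2 for SLC1A4, 0.71 for SLC7A5, 0.44 for SLC7A1 and 0.38 for SLC1A5. Since 4 siNS libraries enter every one of these differences, the 3 sets are not independent. Groups of 2 libraries are too small for a check of single libraries that stand out.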

How the results depend on the processing

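Of 112 member differences tested, 59 were called; 38 of these calls held under every alternative and 21 were lost under at least 1. The 6 falls with erastin in siNS are among the 38. Counts of called carriers changed by more than 1.5 times as follows. Erastin in siDCAF8 called 0 and, once GC content and length were corrected for, 2; erastin in oeWDR76 called 3 and, with no filter, 0; erastin in siDCAF8+siLSH called 2, and 1 with the correction or with no filter. For siDCAF8 against siNS without erastin the count was 2 lower and, with no filter, 1 higher (SLC7A6, neither of the 2), and for oeWDR76 against siNS without erastin 4 and, with quantile normalization, 2. The response of oeWDR76 against siNS went from 4 to 2 with no filter, and that of siDCAF8+siLSH against siDCAF8 from 0 to 1 with median-ratio scaling or quantile normalization. Leaving out single libraries, where the lone library of a group is assumed to vary like the others, gave 0 to 2 for erastin in siDCAF8, 0 to 1 in oeWDR76 and 0 to 3 in siDCAF8+siLSH. It gave 0 to 2 for siDCAF8 against siNS without erastin, 2 to 6 for siDCAF8+siLSH against siDCAF8 with erastin, and 1 to 3 and 0 to 3 for the responses of oeWDR76 against siNS and of siDCAF8+siLSH against siDCAF8. SLC43A1 in oeWDR76 against siNS with erastin reversed from 0.31 to -0.046 log2 after the correction. The cause was not tested. With the replicate number as a block, the counts in all 16 comparisons were as without it, for example 7 for erastin in siNS. The numbers share no stated culture: deviations of same-numbered libraries correlated at -0.21 to 0.39 over 28 pairs of groups, over 0.1 in 7 and under -0.1 in 7. Unknown depth limits the values near 1 FPKM most.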
